A study of Mus musculus with 6 samples.

Results

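The snoRNA host and nuclear long noncoding RNAs examined here are 10 mouse genes, taken by name from the Ensembl entries of a gene table with 60193 rows, of which 53700 are Ensembl genes. 6 of them are hosts of small nucleolar RNAs (Gas5, Snhg1, Snhg3, Snhg6, Snhg8 and Snhg12), 3 are RNAs kept in the nucleus (Malat1, Neat1 and Miat), and Norad is a cytoplasmic RNA that binds Pumilio proteins. The rule used gene names and no measured value. All 10 had a row in the table, 6 had a mean of at least 1 FPKM (fragments scaled to transcript length in kilobases and to the mapped fragments of the library) over the samples and were tested, and Snhg12, Neat1, Miat and Norad were below it and are given by their values alone.

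The samples were 6 pools of mature, metaphase II oocytes from ICR mice aged 42 to 45 weeks, an age near the end of the reproductive lifespan. Each pool held 20 oocytes from 3 mice. The 3 IVM pools were matured in vitro, for 12 h in M16 medium. The 3 IVO pools were matured in the animal and collected 14 h after hCG. Both groups had PMSG priming, and hCG was given to the IVO mice and not to the IVM mice. Cumulus cells were removed from IVM oocytes with a pipette before culture, and from IVO oocytes with hyaluronidase after collection. FPKM is scaled to the mapped fragments, so it gives a share of the RNA captured in the library of a pool and not an amount per oocyte. The part of RNA capture in the differences between groups was not tested. In pooled oocytes, a smaller share in each oocyte and fewer oocytes holding an RNA cannot be told apart.

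A snoRNA host gene is transcribed as a long precursor whose introns carry small nucleolar RNAs, which guide the chemical modification of ribosomal and spliceosomal RNA. The spliced exons of many hosts form a short RNA that is translated poorly or not at all and is degraded by nonsense-mediated decay while ribosomes engage it. Malat1 gathers in nuclear speckles, Neat1 is the scaffold of paraspeckles, and a fully grown oocyte is largely silent in transcription, so that its RNA pool is mostly what was stored earlier.

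Oocyte markers were abundant in both groups, with all 10 tested. Their summed levels were 21333 to 27825 FPKM in IVM and 21085 to 23299 in IVO. Oosp1, the most abundant of them, had means of 11669 FPKM in IVM and 13144 in IVO, a large part of these sums. Of the 10 markers, 4 (Zp1, Zp2, Zp3 and Nlrp5) were called lower in IVO, a larger share than the 17.9% of all tested genes. A negative log2FC was found for 9 of the 10, with a median of -0.92. Of 13 markers of cumulus and granulosa cells, 4 were tested and 0 called, with sums of 32.5 to 63.7 FPKM in IVM and 37.2 to 59.2 in IVO, and Amh at 0 in all samples. The 4 tested overlapped between groups. Cyp19a1 was at 16.25 to 18.76 FPKM in IVM and 17.68 to 23.13 in IVO. Fshr was at 6.14 to 16.3 and 10.51 to 13.84, Amhr2 at 6.86 to 27.89 and 3.14 to 21.91, and Kitl at 1.14 to 1.95 and 1.59 to 2.5. Of the markers below 1 FPKM, Has2 (0.04 to 0.14 FPKM in IVM and 0.17 to 0.37 in IVO), Ptx3 (0 to 0.03 and 0.07 to 0.17) and Tnfaip6 (0 to 0.14 and 0.34 to 0.49), genes of cumulus expansion, did not overlap between groups and were higher in IVO. The other markers below 1 FPKM overlapped between groups, with Inha at a mean of 0.57 FPKM in IVM and 0.213 in IVO. Markers below 1 FPKM were not tested, and the part of the cumulus and granulosa markers in the results below was not tested. The depth inferred from the steps between low values was 16400000 to 19400000 fragments per library. FPKM summed over the table was 1826738 to 2111776 in IVM and 1560813 to 1643682 in IVO, and the median log2FC of all tested genes (IVO minus IVM) was -0.30, or -0.04 after median-ratio scaling.

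Snhg6, Gas5 and Snhg8 are shown here by snoRNAs that they carry, since the snoRNAs are what defines a host. GENCODE places 27 snoRNA entries with 25 names inside the 6 hosts, and 22 of the entries lie in introns of the representative transcript. Gas5 holds 10, Snhg1 8, Snhg12 5, Snhg3 2, and Snhg6 and Snhg8 1 each. The examples below are on GRCm39, read 5′ to 3′ on the strand of the host. In the C/D snoRNAs the capitals mark box C (TGATGA) and box D (CTGA), and in Snora24, an H/ACA snoRNA, they mark the ACA near the 3′ end.
Snord87, in an intron of Snhg6, chr1:10012688-10012774, minus strand: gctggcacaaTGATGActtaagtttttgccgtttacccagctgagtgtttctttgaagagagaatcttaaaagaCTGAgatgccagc
Snord80, in an intron of Gas5, chr1:160865171-160865251, plus strand: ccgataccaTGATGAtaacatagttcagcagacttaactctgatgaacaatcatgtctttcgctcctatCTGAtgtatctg
Snord47, in an intron of Gas5, chr1:160865652-160865728, plus strand: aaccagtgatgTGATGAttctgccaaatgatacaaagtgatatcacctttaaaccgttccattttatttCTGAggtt
Snora24, in an intron of Snhg8, chr3:123301586-123301715, minus strand: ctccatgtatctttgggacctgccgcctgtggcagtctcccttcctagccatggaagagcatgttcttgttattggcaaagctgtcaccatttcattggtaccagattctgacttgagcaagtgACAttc

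Both boxes, with box C in the first part of the RNA and box D in the second, were found on the snoRNA strand in 8 of 10 entries in Gas5, 6 of 8 in Snhg1, 1 of 1 in Snhg6 and 1 of 5 in Snhg12. Among all 1507 annotated snoRNA genes 21.3% held both boxes, and 18.3% held ACA in the place it has in Snora24. The C/D class and the H/ACA class differ in these boxes. No C/D box was marked in the H/ACA entries of the hosts, but this does not show that the letters are absent. Snora24, printed above, holds CTGA, the letters of box D. The counts therefore do not test H/ACA snoRNAs for C/D boxes. The 21.3% is a share of all annotated snoRNA genes, H/ACA included, so it is not a matched background for these counts. 25 of the 27 entries had a row in the table and 1 of them was above 0 in any sample, Snora73b in Snhg3, at 19.4, 0 and 6.35 FPKM in IVM and 10.1, 0 and 28.3 in IVO. The entries are 60 to 205 bases long, below the inferred mean fragment lengths of 210 to 268 bases. A listed 0 therefore does not show that a snoRNA is absent.

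**Figure D1:**
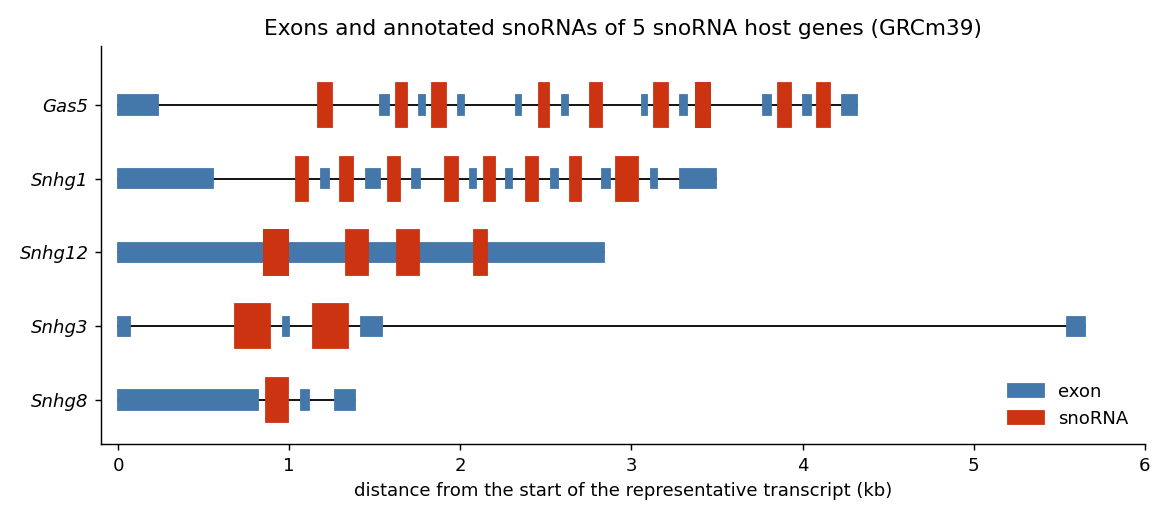
Exons (blue) and annotated snoRNAs (red) of 5 host genes, drawn to scale along the distance in kb from the start of the representative transcript. The 10 snoRNA entries of Gas5 and the 8 of Snhg1 lie between exons, whereas the 5 of Snhg12 fall inside its single-exon representative transcript; Snhg6 spans 87696 bases and is left out.

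Transcripts of many host genes begin with a C followed by pyrimidines, the 5′ terminal oligopyrimidine start, which is known to couple translation to growth signals. The windows below run from 20 bases before the RefSeq start site to 30 after it, with the run in capitals, and each matched 1 place in GRCm39. They are shown because they share this start. The search asked for a C followed by at least 4 pyrimidines on the gene's strand.
Gas5, chr1:160862716-160862765, plus strand: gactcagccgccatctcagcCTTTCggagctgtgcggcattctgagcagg
Snhg8, chr3:123301956-123302005, minus strand: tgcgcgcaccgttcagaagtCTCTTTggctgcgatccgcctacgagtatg
Snhg12, chr4:132035969-132036018, plus strand: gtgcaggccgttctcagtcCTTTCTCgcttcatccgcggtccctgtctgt
Snhg3, chr4:132080968-132081017, minus strand: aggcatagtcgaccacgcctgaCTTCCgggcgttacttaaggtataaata

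The run began exactly at the start site in Gas5 and Snhg8 and within 5 bases of it in Snhg12 and Snhg3. Of the 32851 promoters in the RefSeq table, 2.51% had such a run at the start and 18.35% within 5 bases. Miat also had it at the start, a second Gas5 entry and the entries of Snhg1 and Malat1 did not have it within 5 bases, and Snhg6, Neat1 and Norad were not in the table.

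Among the members, 1 was a differentially expressed gene (DEG), defined by |log2FC| of at least 1 and an adjusted p under 0.05. Snhg6 was lower in IVO and 0 members were higher, where 17.9% of the 18818 tested genes were called lower and 0.606% higher. Among the 1484 tested genes of the lncRNA class those shares were 18.7% and 0.539%, so 1 of 6 is close to the background. The values of 3 members did not overlap between groups and were lower in IVO (Gas5, Snhg1 and Snhg6), with 0 in the other direction, against 32.6% and 9.62% of all tested genes. The p-values measure the spread between these pools, and an exact permutation test of 3 against 3 pools cannot go below 0.1.

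**Figure D2:**
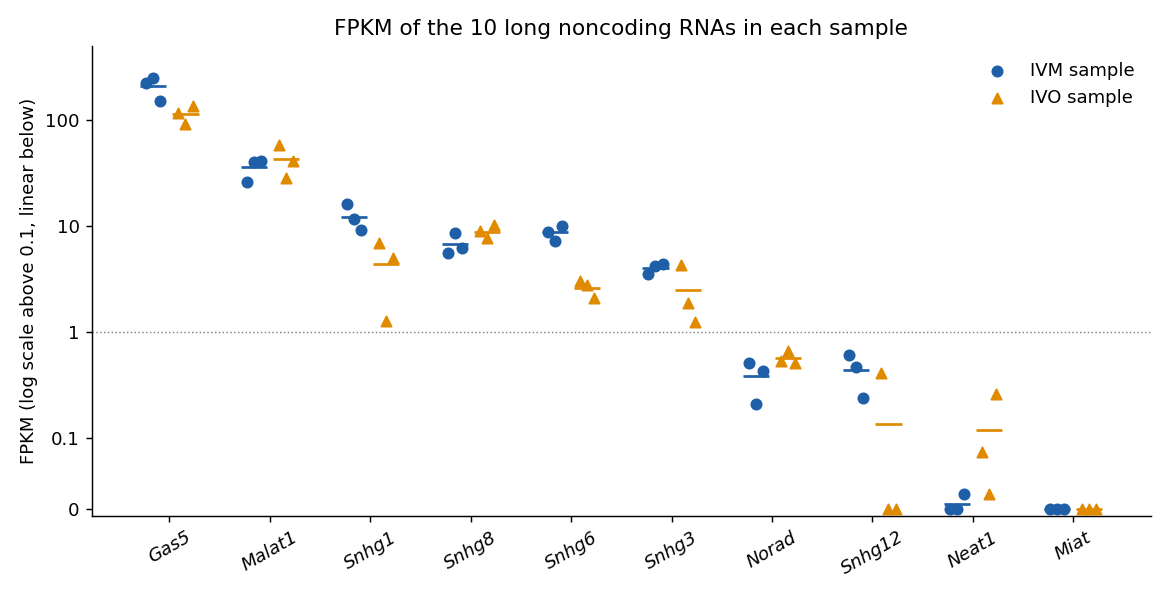
FPKM of the 10 RNAs in each of the 3 IVM (circles) and 3 IVO (triangles) pools, on an axis that is logarithmic above 0.1 and linear below. Gas5 lies highest in both groups, Snhg6 and Snhg1 fall apart between the groups, and Miat is at 0 throughout.

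Gas5 (ENSMUSG00000053332, chr1:160861793-160866118, plus strand, 11 exons) was the most abundant member in every pool. Its exonic RNA is known as a decoy that binds the glucocorticoid receptor, and its introns carry C/D snoRNAs. Gas5 was at 225, 248 and 152 FPKM in the IVM pools and at 117, 90.8 and 135 FPKM in the IVO pools. All 3 IVO pools were below all 3 IVM pools, with the closest pair being IVM 3 and IVO 3.

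The mean of Gas5 was 208 ± 50.2 FPKM in IVM and 114 ± 22.2 in IVO (SD, n = 3), a ratio of 0.547. The log2FC was -0.85 (SE 0.25, 95% interval -1.44 to -0.27) with an adjusted p of 0.0469 from limma, under the fold threshold and so not called. With median-ratio scaling it was -0.53 with an adjusted p of 0.190. Without IVM replicate 3 it was -1.06 with an adjusted p of 0.0301 and passed both thresholds. Gas5 shares 61 exon bases with Zbtb37 on the opposite strand. Whether reads were assigned by strand is not given in the sources used here, so the part of an opposite-strand gene in the level of Gas5 was not tested.

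Snhg6 (ENSMUSG00000098234, chr1:9926809-10014504, minus strand, 5 exons), the host of Snord87 shown above, was the called member. It was at 8.87, 7.29 and 9.98 FPKM in IVM and at 3.02, 2.76 and 2.1 FPKM in IVO. The lowest IVM pool was above the highest IVO pool by more than the range within either group. The means were 8.71 ± 1.35 and 2.63 ± 0.474 FPKM (SD, n = 3), a ratio of 0.301.

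The log2FC of Snhg6 was -1.42 (SE 0.22, 95% interval -1.95 to -0.89, adjusted p 0.00601), and -1.15 with an adjusted p of 0.0141 after median-ratio scaling. Leaving out each pool in turn gave -1.53 to -1.31, called each time. Quantile normalization gave -0.94 and fragment numbers without length normalization gave -0.66, with adjusted p of 0.0210 and 0.0283 and both under the fold threshold. Its log2FC stood at percentile 13.9 of all tested genes and that of Gas5 at percentile 29.1. Among tested Ensembl genes with a listed length under 1000 bases, as Snhg6 has, 22.3% were called lower (median log2FC -0.39, 2587 genes), compared with 11.5% of those of 3000 bases or more (median -0.12, 4856 genes).

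Snhg1 (ENSMUSG00000108414, chr19:8700319-8703812, plus strand, 10 exons) carries 8 snoRNA entries in its introns. It was at 16.03, 11.6 and 9.12 FPKM in IVM and at 6.92, 1.26 and 4.95 FPKM in IVO. The groups did not overlap, but the IVO pools spread widely, with IVO 2 lowest. The log2FC was -1.45 (SE 0.47, 95% interval -2.57 to -0.33) with an adjusted p of 0.0662, which did not pass, and -1.18 with median-ratio scaling (adjusted p 0.119). Without IVO replicate 1 it was -1.82 with an adjusted p of 0.0445 and was called, and without IVO replicate 2 it was -0.92.

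Snhg3 (ENSMUSG00000085241, chr4:132075325-132080997, minus strand, 4 exons), the host of Snora73a and Snora73b, was at 3.50, 4.22 and 4.34 FPKM in IVM. In the IVO pools it was at 4.28, 1.89 and 1.23 FPKM. IVO 1 was within the IVM range and the other IVO pools were below it, so the groups overlapped. The log2FC was -0.63 (SE 0.34, 95% interval -1.44 to 0.18, adjusted p 0.235).

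Snhg8 (ENSMUSG00000104960, chr3:123301192-123302578, minus strand, 3 exons), the host of Snora24, was the host whose mean was higher in IVO. It was at 5.59, 8.64 and 6.16 FPKM in IVM and at 8.88, 7.62 and 10.1 FPKM in IVO. IVO 2 lay below IVM 2, so the groups overlapped. The log2FC was 0.35 (SE 0.23, 95% interval -0.19 to 0.90, adjusted p 0.320), and 0.63 with an adjusted p of 0.0995 with median-ratio scaling. It was not called under any of the 19 alternatives.

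Snhg12 (ENSMUSG00000086290, chr4:132035905-132038762, plus strand) was at 0.61, 0.47 and 0.24 FPKM in IVM and at 0.41, 0 and 0 FPKM in IVO. The groups overlapped at this low level, and no test was made. Snhg12 lies in the same stretch of chromosome 4 as Snhg3.

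**Figure D3:**
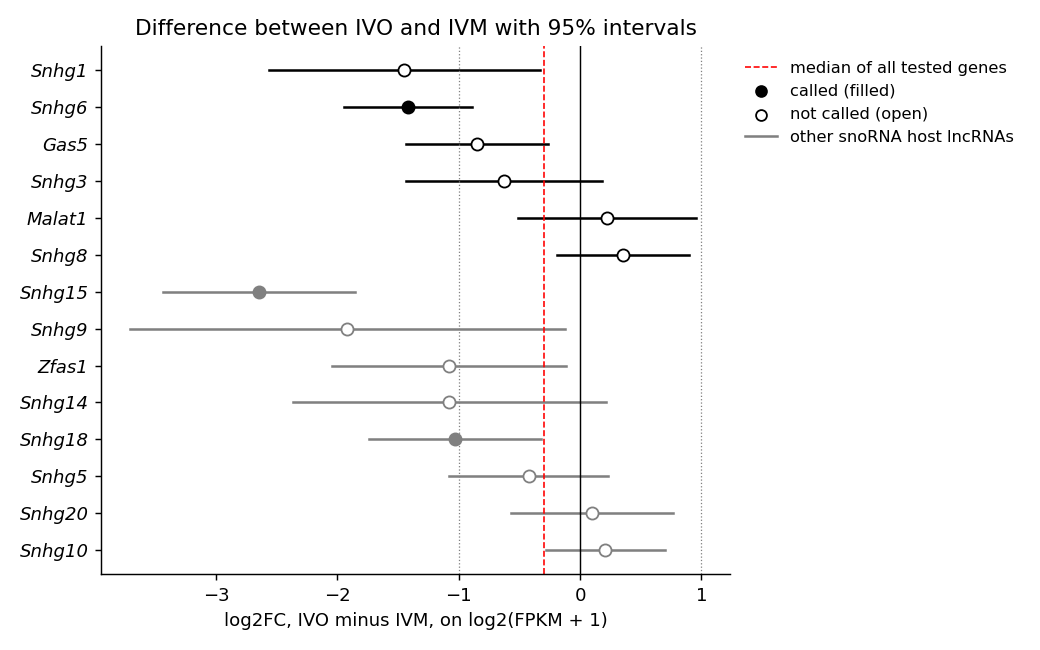
log2FC of IVO minus IVM on log2(FPKM + 1) for the 6 tested members (black) and 8 tested other host lncRNAs (grey), with 95% intervals and filled points for calls. Among the members Snhg6 is the filled point at -1.42, the intervals of Gas5 and Snhg1 lie below 0, and those of Snhg3, Snhg8 and Malat1 cross 0. Among the other hosts Snhg15 (-2.65) and Snhg18 (-1.03) are filled.

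Malat1 (ENSMUSG00000092341, chr19:5845717-5853602, minus strand, 1 exon), the speckle RNA, was the second most abundant member. It was at 25.8, 40.5 and 40.7 FPKM in IVM and at 58.1, 28.5 and 41.4 FPKM in IVO. The highest and the second lowest of the 6 values were both in IVO, so the groups overlapped. The means were 35.6 ± 8.50 and 42.6 ± 14.9 FPKM (SD, n = 3), with a log2FC of 0.22 (SE 0.31, 95% interval -0.51 to 0.96, adjusted p 0.650).

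The sign of the log2FC of Malat1 depended on the setting, being -0.024 without IVO replicate 1 and -0.032 after the trend with gene length was removed. Gm37376, a gene on the opposite strand whose 453 exon bases all lie within Malat1, followed the same order of pools. It was at 16.03, 25.2 and 28.3 FPKM in IVM and 51.5, 19.5 and 29.4 in IVO. Without strand in the counting, its reads and those of Malat1 cannot be told apart.

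Neat1 (ENSMUSG00000092274, chr19:5874736-5897132, minus strand), whose transcript holds paraspeckles together, was at or near 0. It was at 0, 0 and 0.02 FPKM in IVM and at 0.08, 0.02 and 0.26 FPKM in IVO. At its listed length these values are about 0, 0 and 7.9 fragments in IVM and 29.5, 7.1 and 95.2 in IVO, and 3 fragments would be worth 0.00752 to 0.0089 FPKM. The value in IVO 2 equalled that in IVM 3, and no test was made. Summed blood and leukocyte markers were also highest in IVO 3, at 22.8 FPKM against 0 to 4.88 in the other pools, with Lyz2 at 15.7 FPKM there; their part in the level of Neat1 was not tested.

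Miat (ENSMUSG00000097767, chr5:112361094-112377261, minus strand, 7 exons), a nuclear RNA known from neurons and heart, was listed at 0 in all 6 pools. A count of 0 allows up to 3 fragments, which are worth 0.0173 to 0.0205 FPKM at its listed length. These limits and the fragment numbers cover counting error only.

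Norad (ENSMUSG00000102869, chr2:156229977-156234978, minus strand) binds Pumilio proteins through repeated copies of the element TGTANATA. The transcript strand of its 4945-base transcript held 11 copies, or 2.22 per kb. Of 9753 lncRNA transcripts of at least 1000 bases, 10 had more per kb, Norad not among them. At least 1 copy was in 14.73% of the 9753 transcripts, and Snhg6 had 2, Neat1 4 and Miat 1. The copies below, on GRCm39 and the minus strand, show the element in capitals with the bases around it.
Norad, chr2:156234234-156234257: aagtcctgTGTATATAatatgaaa
Norad, chr2:156233738-156233761: aaacatgcTGTAAATAcctttttg
Norad, chr2:156233362-156233385: gactgctgTGTATATAgtggacaa
Norad, chr2:156232131-156232154: tactactaTGTATATAggggacaa

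Norad was at 0.51, 0.21 and 0.43 FPKM in IVM and at 0.53, 0.66 and 0.51 FPKM in IVO. The lowest IVO value tied with the highest IVM value, so the groups touched, and no test was made at this level. The values correspond to about 19.1 to 39.2 fragments in IVM and 42.5 to 53.8 in IVO. Of its partners, Pum2 was at 13.8, 11.4 and 18.2 FPKM in IVM and 26.1, 25.6 and 26.2 in IVO, a log2FC of 0.83 with an adjusted p of 0.0334, under the fold threshold.

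In order of level, Gas5 was followed in IVM by Malat1, then by Snhg1, Snhg6 and Snhg8, then by Snhg3. The range of Snhg6 overlapped those of Snhg1 and Snhg8, and Snhg8 lay below Snhg1. Snhg12 and Norad overlapped below 1 FPKM, and Neat1 and Miat overlapped at or near 0. In IVO the order began with Gas5, Malat1 and Snhg8, then Snhg1, Snhg6 and Snhg3 with overlapping ranges, then Norad. Snhg8 was thus below Snhg1 and overlapped Snhg6 in IVM, and was above both in IVO.

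The 10 RNAs summed to 286, 321 and 223 FPKM in the IVM pools and to 199, 133 and 195 in the IVO pools. Gas5 made up 68.2% to 78.7% of this sum in IVM and 58.7% to 69.0% in IVO, and Malat1 9.05% to 18.2% and 21.2% to 29.2%. The 6 hosts summed to 259, 281 and 182 FPKM in IVM and 140, 104 and 153 in IVO. Of all FPKM in a pool, the members made up 0.0122% to 0.0152% in IVM and 0.00855% to 0.0127% in IVO, and these ranges overlapped.

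**Figure D4:**
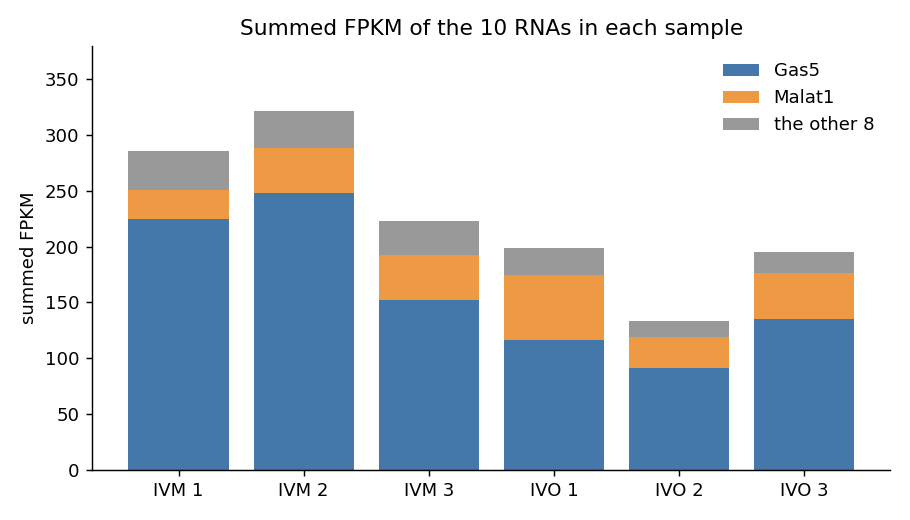
Summed FPKM of the 10 RNAs in each pool, stacked by RNA, on an axis that starts at 0. Gas5 is the bulk of every bar, and the bars of the 3 IVM pools reach 223 to 321 against 133 to 199 in IVO.

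The genes with a profile nearest to that of Gas5 over the 6 pools, by Euclidean distance on log2(FPKM + 1), were Tmigd1 (0.362), Chchd10 (0.425) and Ttll9 (0.439), with Pearson r of 0.945 to 0.969. Nearest to Snhg6 were Ndufs8, a complex I subunit (0.359), Gm16064 (0.408) and Tango2 (0.462), with r of 0.975 to 0.983. With 6 points that fall into 2 groups these are a description of likeness.

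Other host lncRNAs, from a list of 14 genes with 8 tested, gave 2 called lower and 0 higher, with a median log2FC of -1.06 (-0.74 with median-ratio scaling) beside -0.30 over all genes. Over all tested genes, 17.9% were called lower and 0.606% higher. Snhg15 was at 11.9, 9.33 and 5.41 FPKM in IVM and 0.32, 0.31 and 1.01 in IVO. Its log2FC was -2.65 (SE 0.34, adjusted p 0.00303), larger in size than that of any member, and it was called lower in every alternative that tested it. Snhg18 was at 81.1, 48.4 and 36.1 FPKM in IVM and 22.8, 25.5 and 26.8 in IVO, a log2FC of -1.03 with an adjusted p of 0.0468. It passed in 4 of 19 alternatives, and leaving out any pool but IVM 3 ended the call, with values from -1.09 to -0.72. Zfas1, a host of C/D snoRNAs, was at 197, 68.2 and 68.1 FPKM in IVM and 42.2, 46.3 and 47.7 in IVO, with an adjusted p of 0.101, and its groups did not overlap.

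Of 18 protein-coding hosts, all tested, 3 were called lower and 0 higher, with a median log2FC of -0.22 that turned to 0.10 with median-ratio scaling. The shares over all tested genes were 17.9% lower and 0.606% higher, so 3 of 18 is close to the background. Rps12, a protein of the small ribosomal subunit, was at 95.04, 66.0 and 58.6 FPKM in IVM and 25.0, 21.1 and 24.6 in IVO, a log2FC of -1.57 with an adjusted p of 0.00479, and was called in all 19 alternatives. Rps3 had a log2FC of -1.25 (adjusted p 0.0144), and its call was lost without IVM 1 or IVO 2 (-1.19 and -1.13), with no filter (adjusted p 0.0717), with quantile normalization (-0.80) and with fragment numbers (-0.75). The third, Rpl7a, was named after its values were seen and had a log2FC of -1.16 (adjusted p 0.0258), a call that was lost without IVM 1, IVM 3, IVO 1 or IVO 2, with values of -1.22 to -0.91, and with median-ratio scaling (-0.87), the same sum (-0.86), quantile normalization (-0.66), fragment numbers (-0.63) or no filter (adjusted p 0.1505).

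The proteins of the finished snoRNP gave 0 calls among 8 tested by limma, where 17.9% of all tested genes were called lower and 0.606% higher. An unadjusted p under 0.05 was found for 4 of the 8, and the share of all tested genes with such a p was not counted. Dkc1, the pseudouridine synthase of H/ACA particles and itself a host, was at 440, 562 and 484 FPKM in IVM and 811, 728 and 818 in IVO, a log2FC of 0.67 with an adjusted p of 0.0221. Its partners Nhp2 and Nop10 had negative values, -0.94 (adjusted p 0.0189) and -0.84 (adjusted p 0.0240). All 3 stayed under the fold threshold. Of 9 tested assembly factors 1 was called lower and 0 higher, beside 17.9% and 0.606% of all tested genes. This was Ruvbl1, an ATPase that loads snoRNPs, at 80.6, 83.2 and 67.9 FPKM in IVM and 35.3, 29.6 and 37.6 in IVO (log2FC -1.16, adjusted p 0.00668). It fell under the fold threshold with median-ratio scaling (-0.84), the same sum (-0.82), quantile normalization (-0.66) and fragment numbers without length normalization (-0.77).

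Of 13 tested factors of nonsense-mediated decay, 2 were called lower and 0 higher, with a median log2FC of 0.03 (0.34 with median-ratio scaling). With 17.9% of all tested genes called lower and 0.606% higher, 2 of 13 is close to the background. Rbm8a, a core protein of the exon junction complex, was at 28.7, 28.4 and 25.2 FPKM in IVM and 4.48, 10.5 and 8.04 in IVO (log2FC -1.78, adjusted p 0.00709), a call lost with no filter (adjusted p 0.0723). Magoh, the partner of Rbm8a, was the most abundant of the list, with a log2FC of 0.37 and an adjusted p of 0.175.

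Of 13 tested paraspeckle proteins 1 was called lower and 0 higher, with a median log2FC of -0.21 (0.01 with median-ratio scaling). Among all tested genes the shares were 17.9% and 0.606%. Taf15, an RNA-binding protein of the FET family, was at 113, 125 and 80.1 FPKM in IVM and 24.9, 24.0 and 30.2 in IVO (log2FC -1.95, adjusted p 0.00221). Nono, a core paraspeckle protein, was at 1268, 1296 and 1135 FPKM in IVM and 681, 662 and 690 in IVO, a log2FC of -0.86 with an adjusted p of 0.00568 that was under the fold threshold. Pspc1 had -0.95 (adjusted p 0.0321).

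Of 13 nuclear speckle proteins, 1 was called higher and 0 lower, with a median log2FC of 0.20 (0.51 with median-ratio scaling). Among all tested genes 0.606% were called higher and 17.9% lower. Srsf5, a splicing factor, was at 27.6, 32.9 and 31.9 FPKM in IVM and 65.2, 73.4 and 58.7 in IVO (log2FC 1.07, adjusted p 0.00795). Without IVM 1 or IVO 2 its log2FC was 0.99 and under the threshold, as it was with the length trend (0.89) or the GC trend (0.84) removed. Srsf3 and Clk1 had log2FC values of 0.93 and 0.69 with adjusted p of 0.00903 and 0.0303.

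Of 15 other long noncoding RNAs 5 were tested and 0 were called by limma, 0 of them with an unadjusted p under 0.05. Over all tested genes, the shares called were 17.9% lower and 0.606% higher. Pvt1 had a log2FC of 0.35 (adjusted p 0.363), Firre -0.76 (0.371), and Mir17hg 0.20 (0.630), with Mir17hg at -0.045 once the trend with gene length was removed. Of 126 snoRNA rows, 99 were at 0 in all pools and 22 were tested. A listed 0 does not show that a snoRNA is absent, since the capture of snoRNAs was not tested. The tested rows gave 2 called lower and 0 higher, beside 17.9% and 0.606% of all tested genes. Snora75 and Snora74a were called lower: Snora75 was at 19.04, 21.2 and 11.04 FPKM in IVM and listed at 0 in the IVO pools, and Snora74a at 11.9, 3.82 and 1.71 FPKM in IVM and at 0 in IVO. The call of Snora74a was lost without IVM 2 (adjusted p 0.0568), with no filter (0.163), and with the length trend removed (0.0556, or 0.0747 with the replicate block added). With fragment numbers the log2FC was -0.29 for Snora74a and -0.56 for Snora75, both under the fold threshold. The listed lengths of these RNAs, 133 and 196 bases, are below the inferred mean fragment lengths of 210 to 268 bases.

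**Figure D5:**
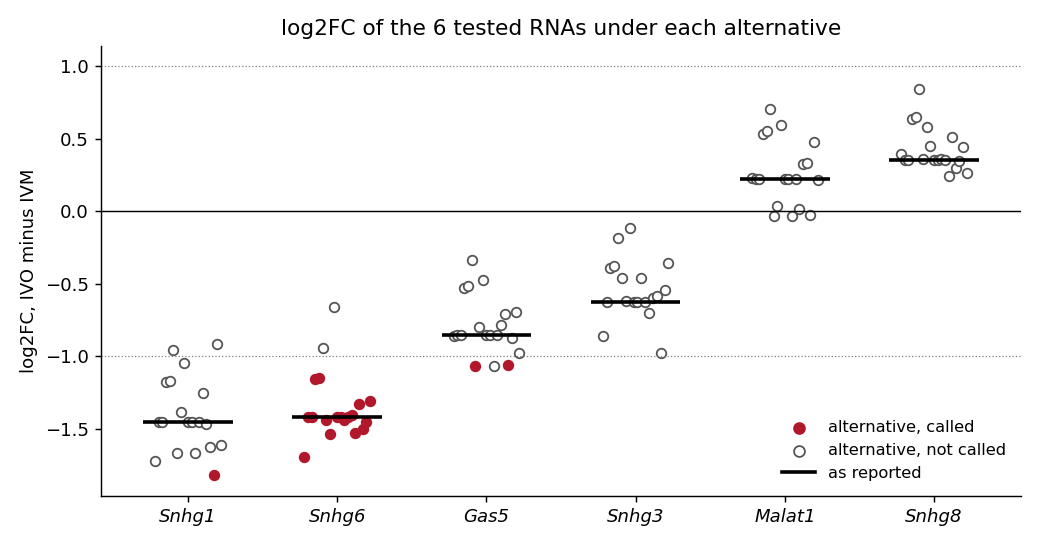
log2FC (IVO minus IVM) of the 6 tested RNAs as reported (black bars) and under each alternative (points, red where called). Snhg6 was called in 17 of 19 alternatives, Gas5 in 2 and Snhg1 in 1, and the points of Malat1 fall on both sides of 0.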

How the data were processed

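RNA-seq of 6 pools of MII oocytes was used, 3 IVM and 3 IVO, grouped by sample title. The authors made full-length cDNA with a SMART-Seq ultra low input kit. How well this step captures snoRNAs, or RNAs with short poly(A) tails, was not tested. The authors deposited 1 FPKM value per gene and sample, with the mean of each group (not used here), a gene length and annotation. The submitters' processing notes name HISAT2 2.1.0, RSEM 1.3.3, DESeq2 1.24.0 and GRCm39. Strand-specific counting is not given in the sources used here.

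The FPKM entered as deposited. limma 3.58.1 in R 4.3.3 (lmFit, eBayes with trend) was fitted on log2(FPKM + 1). It took in the 18818 genes whose values averaged 1 FPKM or more and held the group as its only term. Two-sided p-values were corrected over the whole tested table (Benjamini-Hochberg). A fold change on this scale understates the change of low genes. DEGs had |log2FC| of at least 1 and an adjusted p under 0.05. The fit was tested on simulated data. Tables and plots used matplotlib 3.10.9, numpy 2.4.6, pandas 2.3.3 and Python 3.11.15.

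The members, lists, tests and alternatives were chosen with earlier results of these data known. All members are named. Of each list the text names at most the 3 genes with the lowest adjusted p and the 1 with the highest mean FPKM, and some genes are not reported here. Rpl7a, Nlrp5, Fshr and the cumulus markers below 1 FPKM fall outside this rule and were named after their values were seen. Snhg7 and Rn7sk had no row under these names. Depth was inferred per library from 568 to 651 low values of genes with 1 transcript, of which 78.0% to 81.2% came out as whole fragments.

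Gene positions, exons, snoRNAs and overlaps came from GENCODE M39 on GRCm39. Promoter windows came from RefSeq (GRCm38.p6) and were placed by exact match to GRCm39. Alternatives changed the pseudocount (0.1), the filter (none, or a mean FPKM of at least 5), the scaling (median ratio, same sum, quantile), eBayes without trend, lowess trends on gene length or GC taken out per pool (span 0.3), Ensembl genes only, fragment numbers without length normalization, the replicate number as a block, and the leaving out of each pool.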

Additional observations from a re-analysis of the deposited data

How the results depend on the processing

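Over 19 alternatives (18 for Snhg3, which is not tested at a mean FPKM of at least 5) the log2FC ran from -1.07 to -0.33 for Gas5, -1.82 to -0.92 for Snhg1, -0.98 to -0.11 for Snhg3, -1.70 to -0.66 for Snhg6 and 0.24 to 0.85 for Snhg8, each with 1 sign. That of Malat1 ran from -0.032 to 0.71. It was -0.032 with the length trend removed, with or without the replicate block, and -0.024 without IVO replicate 1, in a range of -0.024 to 0.48 when a pool was left out. Mir17hg was at -0.045 with the length trend removed, with or without the block. Gas5 was called with the length trend removed (-1.07, adjusted p 0.0323) and without IVM replicate 3.

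Members called lower numbered 1, but 0 with quantile normalization or with fragment numbers without length normalization, 2 with the length trend removed, and 1 to 2 when a pool was left out (2 without IVM replicate 3 or IVO replicate 1). 0 members were called higher in every alternative. Of 86 tested genes in the 9 protein and RNA lists, 9 were called lower. This was 4 with no filter, quantile normalization or fragment numbers, 5 with median-ratio or same-sum scaling, 14 with the length trend removed, and 5 to 10 when a pool was left out (5 without IVO replicate 2). The 1 called higher became 4 with median-ratio scaling, 5 with the same sum, 8 with quantile normalization, 6 with fragment numbers, 0 with the length or GC trend removed and 0 with the length trend and replicate block together. It was 0 to 1 when a pool was left out (0 without IVM replicate 1 or IVO replicate 2). Over all genes, calls lower and higher were 3366 and 114, 2130 and 385 after median-ratio scaling, 1580 and 1097 by quantiles, 1036 and 25 with no filter, and 1289 and 364 with fragment numbers. With no filter 60193 genes were tested, and the cause of a moved count was not tested in any setting.

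Replicate numbers did not pair the pools: deviations from the group means of same-numbered IVM and IVO pools correlated at -0.11 to -0.02 across genes, and pools did not correlate best with their own number. With the number as a block, 1 member and 7 list genes were called lower, and 2899 genes in all. GC content was known for 69.3% of tested genes, so the check of GC is void over the whole table and covers those 13036 genes only. Depth limits Snhg12, Neat1, Miat and Norad, and no count test was run on these FPKM values.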
